A study of Mus musculus with 4 samples.

Results

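The calcitonin family in mouse mammary epithelium was followed here through 6 genes of 27998 in the count tables, taken by their symbols. They are Calca and Calcb, which encode peptide ligands, Calcrl, which encodes a receptor, and Ramp1, Ramp2 and Ramp3, which encode the receptor's partner proteins. Calca was chosen by its measured values, namely its appearance in mature luminal (ML) cells of diestrus. Its levels in the 3 main lineages are therefore a description and carry no test.

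Single-cell RNA profiles came from droplets (10X Genomics Chromium, counting the 3′ ends of transcripts) in female FVB/NJ mice without treatment or transgene. The cells were total mammary epithelium, sorted as CD24+ after removal of cells with blood, endothelial or erythroid surface markers. Pubertal glands came from mice of 5 weeks. Adult glands came from mice of 10 weeks, staged by vaginal cytology as estrus or diestrus, phases of the ovarian cycle in which ovulation occurs and in which progesterone from the corpus luteum is high, respectively. The adult stages were each pooled from a pair of mice, and puberty from several. Each stage was thus 1 library, so stage, animals and library cannot be told apart, and no test between stages was made. The puberty library had been deposited as 2 tables, of which the first was used. They shared 5387 barcodes, 99.2% of the first table, and are the same cells. No other pair shared more than 24.

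After grouping by lineage genes, puberty held 1143 basal, 1772 luminal progenitor (LP) and 2183 ML cells, estrus 1306, 472 and 784, and diestrus 1056, 566 and 678. The 3 libraries held 25365324, 10962454 and 11868593 counts of molecules, with medians of 4103, 3236 and 3974 per cell. Each of the 8 marker genes of a lineage was detected in that lineage. The grouping started from these same genes, so this is no check of it, and most also had counts in the other lineages. Cells classed as fibroblast, endothelial or pericyte numbered 51 of 10596, and no cell met the rule for immune or nerve cells. The rule asked for at least 3 of the 5 genes of a list, with more counts than the keratins. Single genes of these lists were found in many more cells, as given below. Levels below are CPM, a gene's share of the summed counts of a lineage on a common total, scaled between sums with TMM. Intervals are 95%, exact, and cover counting error only. With 3′ counting a level is close to a number of molecules whatever the transcript length, but capture differs between genes, so levels are compared between cells and not between genes.

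Calcitonin is a hormone of thyroid C cells, and calcitonin gene-related peptide (CGRP) is a transmitter of sensory nerves. Calca encodes both, through alternative splicing of its transcript, and Calcb encodes a second CGRP. The protein made from Calcrl does not work alone: with RAMP1 it forms the CGRP receptor, and with RAMP2 or RAMP3 it forms adrenomedullin receptors. The calcitonin receptor gene, Calcr, makes a relative that binds calcitonin alone and amylin when joined by a RAMP. These receptors raise cyclic AMP through the G protein subunit made from Gnas.

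In the GENCODE annotation of mouse build GRCm38 (mm10, the build of the tables), Calca (ENSMUSG00000030669) lies on the minus strand of chromosome 7 from 114631478 to 114636357, and Calcb (ENSMUSG00000030666) on the plus strand of the same chromosome from 114718643 to 114723365, 82285 bases away. Calca has 7 annotated transcripts. Transcript Calca-202 ends 1815 bases before Calca-201 does, and a count per gene does not separate such ends, so calcitonin and CGRP transcripts could not be told apart. Of the windows of 50 bases in the last 500 bases of Calca transcripts, 1 of 1561 also occurred in another gene, Calcb. Calcrl (ENSMUSG00000059588) lies on chromosome 2 from 84330626 to 84425411, minus strand. Ramp1 (ENSMUSG00000034353) lies on chromosome 1 from 91179822 to 91225196. Ramp2 (ENSMUSG00000001240) lies on chromosome 11 from 101246028 to 101259546 and Ramp3 (ENSMUSG00000041046) on the same chromosome from 6658521 to 6677475, all on the plus strand. For Ramp2, 25.4% of the windows also occurred in transcripts of Vps25, so that its counts are less certain than those of Calcrl, Ramp1 and Ramp3, for which no window was shared.

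The promoters of Calca and Ramp1 are shown because these members had the most counts in the 3 lineages, from 250 bases before to 50 after the gene's start (RefSeq, GRCm38.p6), Calca at chr7:114636308-114636607 on the minus strand and Ramp1 at chr1:91179572-91179871 on the plus strand. Capitals mark TGACG or its complement, the core of the cyclic AMP response element.
Calca: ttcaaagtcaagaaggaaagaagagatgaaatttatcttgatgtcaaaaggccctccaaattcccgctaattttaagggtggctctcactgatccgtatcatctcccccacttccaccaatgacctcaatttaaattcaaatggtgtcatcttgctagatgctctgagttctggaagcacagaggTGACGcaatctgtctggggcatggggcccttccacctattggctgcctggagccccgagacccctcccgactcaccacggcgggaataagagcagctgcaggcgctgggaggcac
Ramp1: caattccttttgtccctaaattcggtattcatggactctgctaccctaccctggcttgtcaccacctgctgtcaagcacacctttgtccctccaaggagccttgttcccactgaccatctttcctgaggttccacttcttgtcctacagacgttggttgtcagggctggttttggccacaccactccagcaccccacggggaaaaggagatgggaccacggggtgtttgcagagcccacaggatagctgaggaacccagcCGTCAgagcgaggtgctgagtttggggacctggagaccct
The core begins 65 bases before the start of Calca, at offset -65, and at offset 10 after that of Ramp1. It occurred on either strand in 20.8% of 32851 promoters of this length, and not in those of Calcrl and Ramp3. The full element TGACGTCA, which contains the core, occurred in 1.79% of promoters and in none of these 4. A palindrome of steroid receptor binding occurred in 0.475% and in none of the 4. These letters are a description and not sites of binding.

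Among the ligands, Calca was present in diestrus alone. It had 0 counts in every cell of puberty, in both tables, and 0 in estrus, and 1271 counts in 177 cells of diestrus. In diestrus ML cells its level was 339 CPM (95% interval 319.5 to 359), from 1170 counts. In ML cells of estrus a count of 0 allows, at a floor of 3 counts, up to 0.686 CPM, and in those of puberty up to 0.276 CPM. The exact 95% upper limits were 0.843 and 0.340 CPM. The diestrus level was therefore 494-fold above the floor of estrus and 1225-fold above that of puberty, the floor being 3 counts in the ML sum. The diestrus library thus stood alone, and a single library carries this difference.

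Within diestrus, 144 of 678 ML cells had Calca, 21.2% (18.2 to 24.5%). In LP cells 3 of 566 had a count (0.530%), and in basal cells 8 of 1056 (0.758%), at median depths of 4335, 4049 and 3414 counts per cell for ML, LP and basal cells. In LP and basal cells no cell held more than 2 counts, and whether these came from free RNA was not tested. The ML cells were unequal among themselves. The median of those with Calca was 4 counts, 37 had a single count, 36 had 10 or more, and the highest had 53. The 10 highest cells held 31.1% of the ML counts. Of ML cells thinned to 2000 counts each, 16.2% had Calca.

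**Figure D1:**
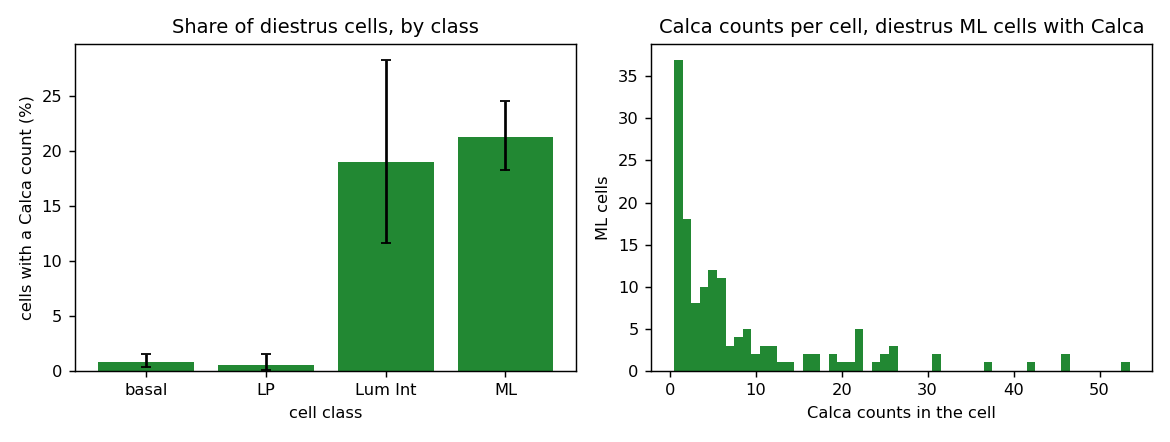
Left, share of diestrus cells with a Calca count (y axis, percent) in 4 classes (x axis), with exact 95% intervals. Right, number of ML cells (y axis) by Calca counts in the cell (x axis), for the 144 ML cells with Calca. ML cells stand at 21.2% and LP and basal cells under 1%, and the counts per cell run from 1 to 53.

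Markers of nerve, a tissue that makes CGRP, were low in ML cells. The nerve list, of 5 genes, summed to between 3.59 and 5.49 CPM in ML cells of the 3 libraries, against 53.0 to 73.5 CPM in LP cells, where nearly all came from Sox10. Cdh19 and Prph, 2 of its genes, had 0 counts in diestrus ML cells.

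Calcb had 0 counts in all 10596 cells, which allows a level of up to 0.868 CPM in diestrus ML cells. The other ligands of these receptors were unlike each other. Iapp, which encodes amylin, had 4 counts, all in 1 pubertal cell. Adm2, which encodes intermedin, had 7 counts in 7 cells. Adm, which encodes adrenomedullin, was detected in every lineage and is given below with the pathway.

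The receptor gene was almost absent. Calcrl had 6 counts in 6 of 10596 cells, of which estrus held 4 and puberty and diestrus 1 each. Of the estrus counts, 2 were in basal and 2 in LP cells. No ML cell had Calcrl in any library, and in diestrus 0 of 678 ML cells allows, at 3 counts of the total, a share of cells with a captured Calcrl molecule of up to 0.442%, which does not limit the share of cells that express it. Calcr had 0 counts in every cell. At this depth the ligand Calca and the partner Ramp1 were therefore detected. Of the receptors they are known to work with, very little or no transcript was. The floor of 3 counts lay between 0.276 CPM, in pubertal ML cells, and 1.70 CPM, in estrus LP cells. A level of either receptor gene below that floor would not have been reliably detectable.

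Ramp1 was the most widely detected member, with 4986 counts in 2607 of 10596 cells. In LP cells its level was 251 CPM (239 to 264) in puberty, 366 (338 to 395) in estrus and 108 (95.9 to 121) in diestrus. In basal cells it was 117, 72.4 and 74.1 CPM, and in ML cells 49.0, 30.9 and 23.7 CPM, in the same order. The means were 241.5 ± 129 CPM in LP, 87.9 ± 25.3 in basal and 34.5 ± 13.0 in ML cells (SD, n = 3). LP was the highest lineage and ML the lowest in each of the 3 libraries. Taken over all libraries the ranges of LP and basal cells overlapped, since LP in diestrus was below basal in puberty, whereas ML lay below both.

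Tested with libraries as blocks (edgeR quasi-likelihood test with Benjamini-Hochberg adjustment over 11174 genes), Ramp1 was lower in ML than in LP cells by a log2 fold change of -2.74 ± 0.29 (SE, n = 3 libraries, adjusted p = 2.76e-05). It was higher in LP than in basal cells by 1.36 ± 0.27 (adjusted p = 0.00203) whereas ML lay under basal cells by -1.38 ± 0.28 (adjusted p = 0.00171). Without the estrus library the LP to basal difference was 0.79 (adjusted p = 0.00635). With only cells of at least 1000 genes and under 10% mitochondrial counts it was 1.04 and no longer passed (adjusted p = 0.0119).

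Ramp2 and Ramp3 were rare and leaned to the basal lineage. Ramp2 had 23, 26 and 13 counts in basal cells of puberty, estrus and diestrus, 0, 1 and 0 in LP cells, and 1, 1 and 5 in ML cells. Over the 3 libraries its basal level was 46.5 times that of LP cells (counting interval 8.04 to 1866) and 11.8 times that of ML cells (5.40 to 30.6). Both differences passed the edgeR test (adjusted p = 0.00391 and 0.00385), with log2 fold changes of -5.13 and -3.36. Without the estrus library these were -7.45 and -3.02 and no longer passed (adjusted p = 0.0186 and 0.0435). ML and LP cells did not pass against each other (adjusted p = 0.439).

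Ramp3 had 27, 60 and 28 counts in basal cells, 17, 0 and 0 in LP cells, and 0 in ML cells of every library. Basal cells were thus 51.1-fold above a floor of 3 counts over the ML sums, and the exact lower limit of the ratio was 40.9. The difference passed in edgeR (adjusted p = 0.000432) but not in DESeq2 (adjusted p = 0.0364). Basal and LP cells differed 5.07 times over the libraries (3.03 to 9.01) but did not pass the test (edgeR adjusted p = 0.0189), and passed without the puberty library (adjusted p = 0.000993). The LP counts were all pubertal. LP and ML cells did not pass (edgeR adjusted p = 0.0245).

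Of the 3 members with a lineage test, 1 was called between ML and LP cells, 2 between LP and basal cells, and 3 between ML and basal cells. The test called 28.1%, 32.6% and 43.0% of all genes tested in these contrasts, so that with 3 members the counts do not set them apart from genes in general. Calls were 1422 higher and 1715 lower in ML than in LP cells, and 1789 higher and 1858 lower in LP than in basal cells. Without TMM, the median of all genes shifted by 0.19 and -0.20 on the log2 scale in these contrasts, and the calls were 1900 and 1318, and 1333 and 2348. The differences of Ramp1 kept their direction and their call without TMM.

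**Figure D2:**
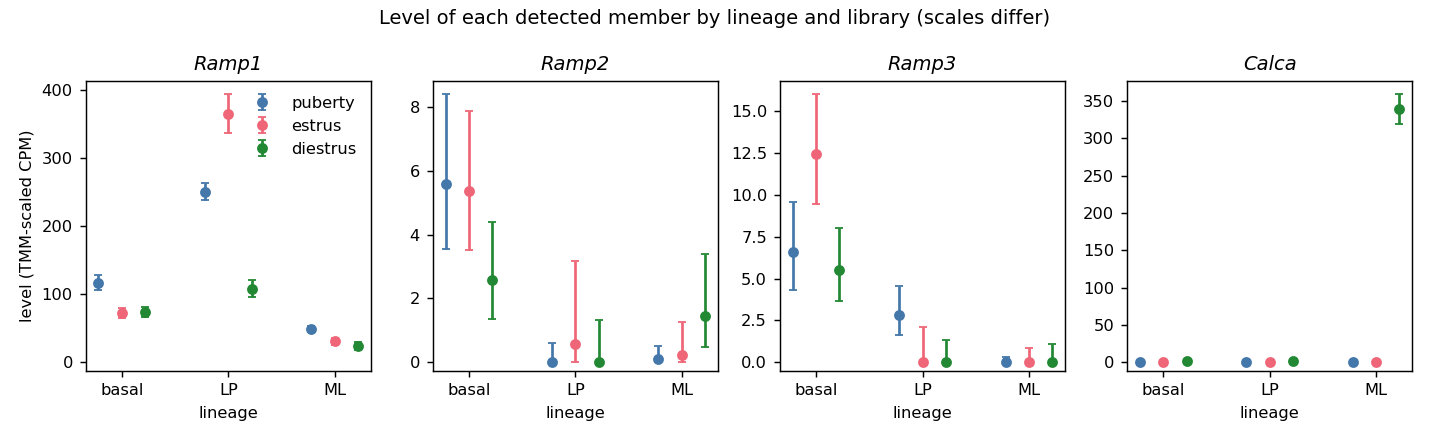
Level (y axis, TMM-scaled CPM, a scale for each panel) of the 4 members with more than a few counts, by lineage (x axis) and library (colour), with exact 95% Poisson intervals. Ramp1 is highest in LP cells of each library, Ramp2 and Ramp3 are highest in basal cells, and Calca is at 339 CPM in diestrus ML cells and under 2 CPM elsewhere.

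Genes of other cell types were set beside these basal levels. The endothelial list (Pecam1, Cdh5, Emcn, Cldn5 and Esam) had 1 to 3 genes with a count. Basal cells held 3.16 to 7.03 CPM of it, LP cells 6.35 to 10.8 and ML cells 1.45 to 2.74. In LP cells nearly all of it was Pecam1 (6.18 to 10.5 CPM). Esam went the other way, at 1.22, 5.38 and 2.17 CPM in basal cells of puberty, estrus and diestrus, 0 in LP and under 0.83 in ML cells. The pericyte list had all 5 genes with counts in basal cells and summed to 4.37 CPM at the lowest and 21.9 CPM, in estrus, at the highest. Des led it, at 1.94, 13.7 and 3.95 CPM. Esam, Des and Ramp3 were thus each highest in estrus basal cells. Pecam1 was not, at 1.70, 1.66 and 1.98 CPM in basal cells of puberty, estrus and diestrus. Adm, Ackr3, Mme and Pde4b, pathway genes given below, were also highest in estrus among the basal sums. The fibroblast list summed to 235 to 265 CPM in basal and 215 to 702 CPM in ML cells, nearly all from Dcn, which was at 254.7, 253.9 and 230.7 CPM in basal cells of puberty, estrus and diestrus. Col1a2 was at 1.94, 6.62 and 1.98 CPM there, and highest in estrus, as was Ramp3. Of the 52 estrus basal cells with Ramp3, 1 had an endothelial gene (1.92%, against 1.83% of cells without Ramp3) and 16 a fibroblast gene (30.8% against 24.0%). Of the 22 with Ramp2, 0 had an endothelial and 11 a fibroblast gene (50% against 23.8%). In puberty the fibroblast shares were 42.9% against 27.2% (Ramp3) and 40% against 27.2% (Ramp2). In diestrus they were 37.0% against 35.9% and 38.5% against 35.9%. Depth was not matched in these shares. For Ramp1 in estrus basal cells the share was 59.0% against 18.4%, at medians of 5790.5 against 2384.5 counts. The 51 fibroblast, endothelial and pericyte cells themselves held 33 counts of Ramp2 in 22 cells. The part of such cells in the basal levels of Ramp2 and Ramp3 was not tested.

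Across stages, Ramp1 in LP cells was 3.39 times lower in diestrus than in estrus (2.95 to 3.90), and puberty lay between them. It was 1.46 times lower in puberty than in estrus (1.32 to 1.60) and 2.33 times higher than in diestrus (2.06 to 2.65). Of 6765 genes measured in LP cells, 4.88% were at least 2-fold lower in diestrus than in estrus and 5.74% at least 2-fold higher. The share of LP cells with Ramp1 followed the level, at 39.4%, 61.7% and 30.7% in puberty, estrus and diestrus. It was 27.6%, 49.5% and 18.9% among cells thinned to 2000 counts, which left out 173, 82 and 68 cells below that depth.

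In basal cells Ramp1 was at nearly the same level in diestrus and estrus (ratio 1.02, 0.883 to 1.19). The share of basal cells with Ramp1 was 14.4% (12.5 to 16.4%) in estrus and 25.6% (23.0 to 28.3%) in diestrus, at medians of 2542 and 3414 counts per cell. After thinning it was 10.1% and 13.0%, with 359 estrus and 193 diestrus basal cells of lower depth left out. The level of thinned cells was also higher in diestrus, so share and level then moved in the same direction. In this lineage 5.17% of genes were at least 2-fold higher and 3.74% at least 2-fold lower. In ML cells the ratio of diestrus to estrus was 0.769 (0.577 to 1.02), where 4.28% of genes were at least 2-fold higher and 1.6% at least 2-fold lower. Puberty had the highest Ramp1 level of the 3 libraries in both lineages, 1.62 times that of estrus in basal cells (1.41 to 1.86) and 1.59 times in ML cells (1.31 to 1.93). Whether the ratios in the 3 lineages differ was not tested. Ramp3 in basal cells was 2.24 times lower in diestrus than in estrus (1.41 to 3.65), and Ramp2 2.09 times lower (1.04 to 4.44).

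**Figure D3:**
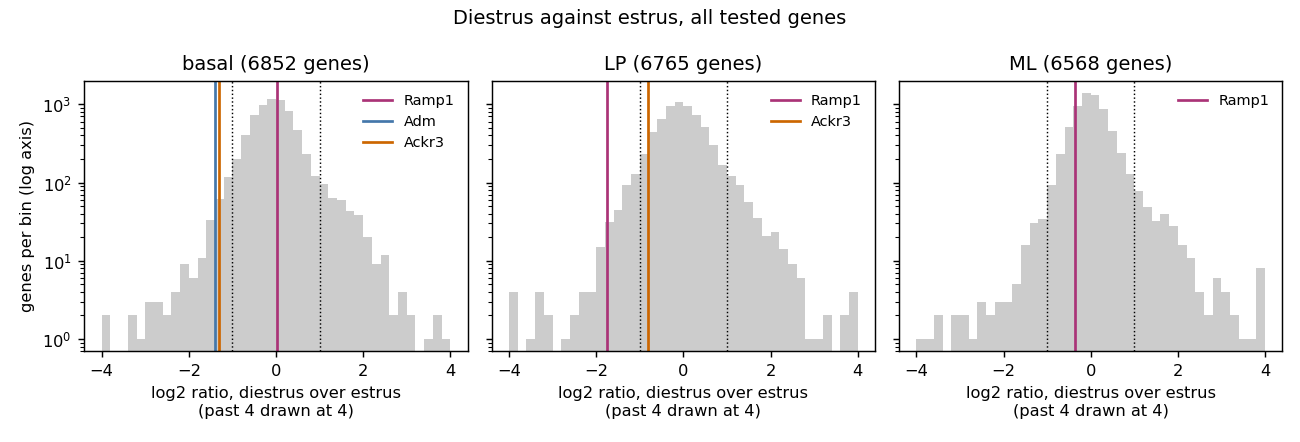
Log2 ratio of diestrus over estrus (x axis) for all genes measured in basal, LP and ML cells, as the number of genes per bin (y axis, log axis). Coloured lines mark Ramp1, Adm and Ackr3 where measured, and dotted lines mark 2-fold. Ramp1 lies past 2-fold lower in LP cells alone.

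The share of cycling cells, those with at least 3 of 10 cell cycle genes, was lower among LP cells with Ramp1 than among those without it. Cells of 1 library are not replicates, so no test was made. In puberty 3.15% of cells with Ramp1 and 10.5% of those without were cycling. The shares were 1.72% against 8.29% for estrus and 10.9% against 19.4% for diestrus. With cells thinned to 2000 counts they were 0.680% against 7.08%, 0% against 5.58% and 5.32% against 10.6%, lower in 3 of 3 libraries. In diestrus the intervals overlapped, both before (6.70 to 16.5% against 15.6 to 23.7%) and after thinning (1.75 to 12.0% against 7.81 to 14.1%), whereas in puberty and estrus they lay apart. In basal cells the same shares were 20.5% against 8.89% (puberty), 25.5% against 1.88% (estrus) and 29.6% against 16.7% (diestrus), but cells with Ramp1 there were deeper (medians of 4310.5 against 2645 counts in puberty). After thinning the basal shares had no common direction: 8.27% against 8.20%, 7.29% against 3.17% and 9.82% against 15.2%. In ML cells they were 9.86% against 4.97%, 14.6% against 6.07%, and 0 of 26 cells against 6.64%, again with no common direction.

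The further genes of the pathway were 42, comprising the other ligands and receptors of the family, peptide-processing and degrading enzymes, and cyclic AMP signalling genes, of which 28 could be tested. Between ML and LP cells 3 were higher and 8 lower in ML cells, 39.3% of those tested. Between LP and basal cells 5 were higher and 8 lower in LP cells (46.4%), and between ML and basal cells 4 were higher and 11 lower in ML cells (53.6%). These shares stand beside 28.1%, 32.6% and 43.0% of all genes. The list's median log2 fold changes were -0.16, -0.33 and -0.51, against -0.04, 0.00 and -0.04 over all genes.

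Among the ligands and receptors of the list, Adm was highest in basal cells. Its level there was 15.1, 55.0 and 20.2 CPM in puberty, estrus and diestrus, against 6.01 to 10.2 in LP and 8.46 to 11.4 in ML cells, so that basal cells lay above both other lineages, whose ranges overlapped. It was lower in LP than in basal cells by -1.89 ± 0.38 (edgeR adjusted p = 0.00194) and in ML than in basal cells by -1.41 ± 0.34 (adjusted p = 0.00481). Without the diestrus library the differences were as large, -2.02 and -1.48, but neither passed (adjusted p = 0.0124 and 0.024), nor did the ML difference without estrus (-0.73, adjusted p = 0.0538).

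Ackr3 encodes an atypical receptor that also takes up adrenomedullin. Its basal level was 55.2, 151.6 and 60.3 CPM in puberty, estrus and diestrus, its LP level 15.4, 62.3 and 34.8 CPM, and its ML level 1.01, 1.14 and 0 CPM. ML cells were thus far below both other lineages in every library (log2 fold change against LP -5.15 ± 0.41, edgeR adjusted p = 3.28e-06, and against basal -6.45 ± 0.39, adjusted p = 1.96e-07). LP cells were below basal cells by -1.30 ± 0.26 (adjusted p = 0.00172), and by -1.33 without estrus, where the difference did not pass (adjusted p = 0.0176). Crcp, which encodes a component of the CGRP receptor and of RNA polymerase III, was even across lineages, at 16.3 to 27.4 CPM, and passed in no contrast (edgeR adjusted p = 0.199 to 0.615).

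Of the peptide enzymes, Pam, which amidates the end of calcitonin and CGRP and is needed for their activity, was highest in ML cells. It was at 42.0, 24.7 and 30.1 CPM in ML cells of puberty, estrus and diestrus, against 13.6 to 15.8 in basal and 6.01 to 10.9 in LP cells. The difference from LP was 2.08 ± 0.27 (edgeR adjusted p = 0.000123) and that from basal cells 1.12 ± 0.24 (adjusted p = 0.00201). Cpe, a carboxypeptidase that trims peptide hormone precursors, was an LP gene, at 102, 98.0 and 29.8 CPM there and under 6 CPM elsewhere. It was lower in ML than in LP cells by -5.46 ± 0.35 (adjusted p = 6.03e-07) and higher in LP than in basal cells by 3.90 ± 0.31 (adjusted p = 2.52e-06). Mme, which encodes the peptide-degrading enzyme neprilysin, was lower in ML cells, by -6.76 ± 0.42 against basal (adjusted p = 2.57e-07) and -5.25 ± 0.46 against LP (adjusted p = 6.05e-06). Ide, another peptidase, was higher in ML cells, by 1.29 ± 0.19 against basal (adjusted p = 0.000189) and 0.95 ± 0.20 against LP (adjusted p = 0.0029).

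Among cyclic AMP genes, Prkar2b, a regulatory subunit of protein kinase A, was higher in ML than in LP cells by 3.14 ± 0.39 (edgeR adjusted p = 8.60e-05) and than in basal cells by 1.16 ± 0.30 (adjusted p = 0.00667). Pde4d, which degrades cyclic AMP, and Crem, a transcription factor that responds to it, were higher in LP than in basal cells by 2.20 ± 0.17 and 1.37 ± 0.22 (adjusted p = 1.85e-06 and 0.00045). Prkar1b, a further regulatory subunit, and Adcy3, an adenylyl cyclase, were lower in LP than in basal cells by -4.61 ± 0.59 and -2.66 ± 0.51 (adjusted p = 8.48e-05 and 0.00141). Adcy7, another cyclase, had 49 counts in basal cells, 2 in ML cells and 0 in LP cells. Its basal level was 12.3-fold above a floor of 3 counts in LP cells, with an exact lower limit of 9.59 (edgeR adjusted p = 0.000845). It was 32.7 times that of ML cells (8.58 to 277, edgeR adjusted p = 0.000436).

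**Figure D4:**
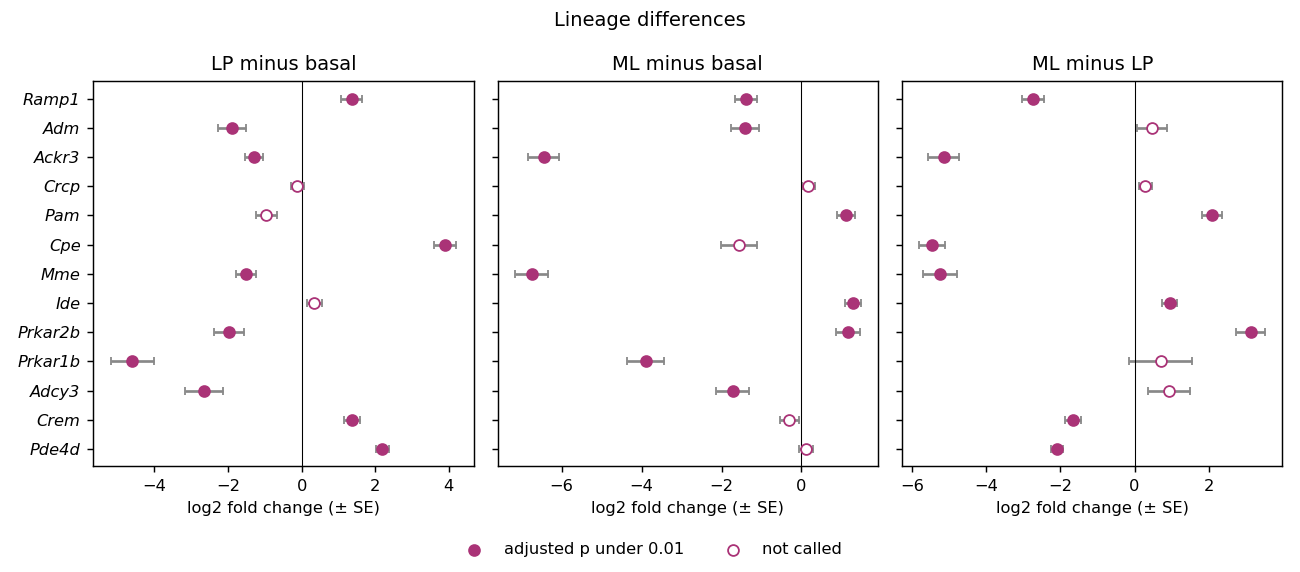
Log2 fold change (x axis, ± SE derived from the F statistic, 3 libraries) of Ramp1 and named pathway genes (y axis) between the lineages, from the edgeR fit. Filled points have an adjusted p under 0.01. Ramp1 is lowest in ML cells, as are Ackr3 and Mme, whereas Pam, Ide and Prkar2b are higher in ML cells than in LP and basal cells.

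Across stages the pathway genes that passed 2-fold between diestrus and estrus were lower in diestrus. In basal cells 4 of 20 measured were lower, where 3.74% of all genes were, and 0 higher. The list's median log2 ratio was -0.19, against -0.05 over all genes. The lower genes were Adm by 2.73 times (2.16 to 3.46), Ackr3 by 2.51 (2.20 to 2.88), Mme by 3.07 (2.62 to 3.62) and Pde4b, another cyclic AMP phosphodiesterase, by 2.23 (2.02 to 2.45). In LP cells 2 of 19 were lower, against 4.88% of all genes, Cpe by 3.29 times (2.52 to 4.34) and Crem by 2.92 (2.26 to 3.80), with a median of -0.14 against -0.06. In ML cells 0 of 15 passed in either direction, against 4.28% of all genes higher and 1.6% lower, with a median of 0.11 against 0.00.

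Within diestrus ML cells, those with Calca were set beside those without it for genes of the hormone response. Cells of 1 library are not replicates, so these shares are given without a test. Of the 144 cells with Calca, 47.2% (38.9 to 55.7%) had Tnfsf11, the progesterone-induced ligand RANKL, against 10.1% (7.69 to 13.0%) of the 534 without. The cells with Calca were deeper, with a median of 6381.5 against 4047 counts. When thinned to 2000 counts, 25.3% (17.1 to 35.0%) of 99 cells with Calca and 5.84% (3.97 to 8.23%) of 514 cells without it had Tnfsf11. Thinning left out 65 ML cells of lower depth. Calca was called on the thinned counts, so the cells without it can include some that had it before. The intervals lay apart before and after thinning.

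Areg, an EGF receptor ligand induced by estrogen, was in 97.2% of cells with Calca and 63.5% of those without (92.9% and 60.7% thinned). Prlr, the prolactin receptor gene, was at 541 CPM in cells with Calca and 1062 in those without, CPM here being unscaled, and in 63.6% and 84.0% of thinned cells. Pgr, the progesterone receptor gene, was in 9.72% (5.42 to 15.8%) and 16.3% (13.3 to 19.7%), intervals that overlap, without depth being matched. Its level was 17.0 against 40.7 CPM, from 16 and 100 counts. After thinning Pgr was in 5.05% and 8.17% of cells, at 25.3 against 43.8 CPM, from 5 and 45 counts. Wnt4 was in 35.4% (27.6 to 43.8%) and 22.5% (19.0 to 26.3%) of cells, in 16.2% and 11.7% after thinning, and at 67.0 and 65.9 CPM. Esr1, the estrogen receptor gene, was in 10.4% and 10.3% of cells. Cited1, a coactivator of ML cells, was in 98.6% and 92.5%. Prlr, Esr1 and Cited1 are among the genes by which cells were placed as ML. Mki67, a proliferation gene, was in 8.33% (4.38 to 14.1%) and 2.62% (1.44 to 4.36%), and in 3.03% and 1.75% thinned. Cycling cells were 21.5% of those with Calca and 6.37% of those without, and 13.1% (7.18 to 21.4%) and 5.06% (3.33 to 7.32%) thinned.

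Ramp1 was in 5.56% (2.43 to 10.7%) of cells with Calca and 9.93% (7.52 to 12.8%) of those without. Its unscaled level was 11.7 against 28.9 CPM, from 11 and 71 counts. After thinning Ramp1 was in 3.03% and 4.47% of cells, at 15.2 against 25.3 CPM, from 3 and 26 counts. Ramp2 was in 3 and 2 cells, and Calcrl and Ramp3 in none of either.

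**Figure D5:**
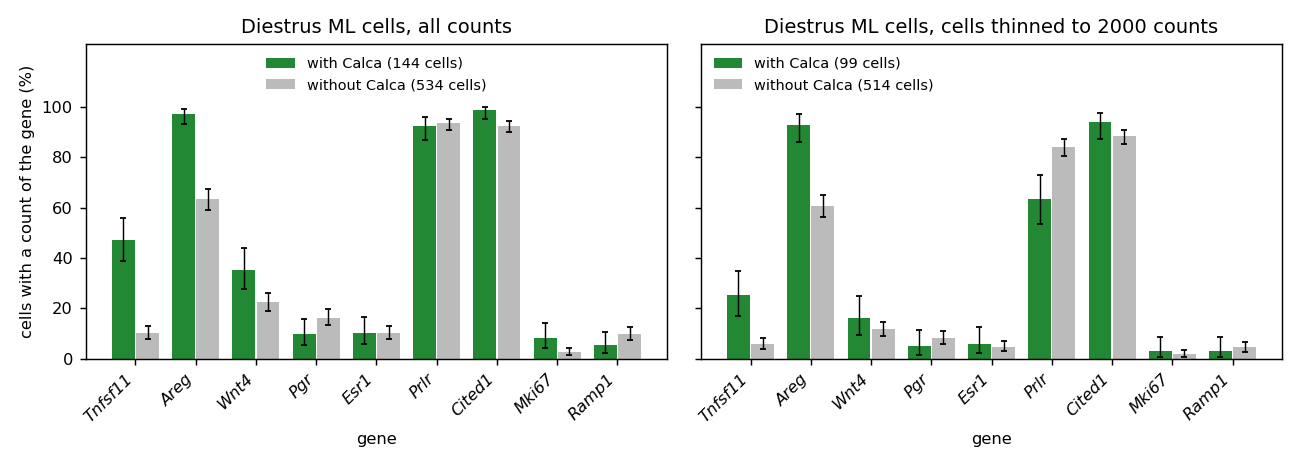
Share of diestrus ML cells with a count of each gene (y axis, percent), for cells with Calca (green) and without (grey), with exact 95% intervals, from all counts (left) and after thinning to 2000 counts (right). Tnfsf11 and Areg stand higher in cells with Calca in both panels, and Prlr stands lower after thinning.

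Over all 9 sums, the genes whose level ran most like that of Calca were Tnfsf11 (Pearson r 0.93), Ndufv1 (0.92), Sult1a1 (0.91), Tubb4a (0.90) and Capn15 (0.90), of 11815 genes. Calca is near 0 in 8 of the 9 sums, so that r reflects a gene's excess in diestrus ML cells. Tnfsf11 was at 81.0 CPM there, 3.78 in pubertal ML cells and 0 in estrus ML cells. Sult1a1 was at 26.9 CPM in diestrus ML cells and at most 2.54 elsewhere, and Tubb4a at 9.55 and at most 1.66 CPM. The excess of the others was smaller. Ndufv1 was at 163 CPM in diestrus ML cells and 129 to 145 CPM elsewhere, and Capn15 at 6.08 and 1.70 to 2.95 CPM. The genes most like Ramp1 were Ptp4a1 (0.99), Rassf4 (0.97) and Pafah1b1 (0.97). For Ramp2 they included Abi2 (0.97) and Cdk14 (0.97), and for Ramp3 they were Fbln5 (0.99), Timp3 (0.98) and Fabp4 (0.98). The 9 sums share libraries and lineages, so these r values are a description.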

How the data were processed

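The authors made the deposited tables with Cell Ranger 2.0 on mouse build mm10; the deposited values are unnormalized counts of molecules, by gene and cell barcode. Members and lists were chosen with earlier results of these data known. Cells were placed by signatures of up to 100 genes, built from seed cells that led by a z-score of 1 over 8 markers, without members, pathway genes or cell cycle genes. Mixed basal-luminal and intermediate cells were left out of comparisons, and no doublet caller was run. Thinning kept only cells with at least 2000 counts. Counts were summed per lineage and library (9 sums) and tested with edgeR 4.0.16 (quasi-likelihood, TMM, library as a block, Benjamini-Hochberg, called under 0.01). With the block, p-values rest on how the lineage differences vary between 3 libraries of different stages, with dispersion estimates shared over genes. SE values were derived from the fold change and the F statistic. Stage ratios use genes with a mean of at least 10 CPM and a pseudocount of 1 CPM for the 2-fold share, likeness was taken over genes with at least 50 counts, and floors are 3 counts. Pathway genes named are Calcr, Adm, Adm2, Iapp, Crcp, Ackr3, Pam and the 3 largest called differences per direction and contrast, likeness genes the 5 most like Calca and 3 most like each other member, of which 1 is not reported here. DESeq2 1.42.0, scaling, filters, blocks, cell sets and libraries were varied.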

Additional observations from a re-analysis of the deposited data

Results flagged for a closer look

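Cells outside the 3 lineages also held Calca or a receptor partner, above the limit that a count of 0 allows. In diestrus, 18 of 95 intermediate luminal cells, which carry both LP and ML signatures, had Calca, 18.9% (11.6 to 28.3%), against 0 of 112 in estrus and 0 of 224 in puberty. Of 34 mixed basal-luminal cells in diestrus, 4 had Calca, 11.8% (3.30 to 27.5%). These classes were deeper than ML cells, with medians of 7197 and 5395.5 counts, and their part in the result was not tested. In the 51 fibroblast, endothelial and pericyte cells of all libraries, Ramp2 stood at 223 CPM without scaling, from 33 counts in 22 cells, and in the 3 libraries apart it was at 282, 186 and 223 CPM.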

How the results depend on the processing

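Between stages, no paired analysis was possible because each stage had 1 library, the puberty replicates being the same cells. The lineage tests had the library as a block. Of the alternatives to the main lineage, stage and co-detection results, 131 kept their direction and side of the threshold or stayed within the counting interval, 6 lost a call, 4 gained one and 15 moved further. Without the library block, Ramp1 gave 1.46 (LP against basal) and -1.33 (ML against basal), neither past the threshold, and with the cell filter 1.04. Adm in ML against basal cells no longer passed without the block (-1.63, adjusted p = 0.0126) or with the cell filter (-1.30, adjusted p = 0.0144), nor Ackr3 in LP against basal cells without the block (-1.30 in edgeR, adjusted p = 0.0968). Ramp3 passed in LP against basal cells without TMM (-2.83) or without the filter on low counts (-2.57), and in ML against LP cells without that filter (-5.87). With DESeq2 its ML to basal value was -7.85 and did not pass. Leaving out a library gave -7.44 to -5.08 (Ramp2, LP against basal), -5.05 to -3.02 (Ramp2, ML against basal) and -7.91 to -2.03 (Ramp3, LP against basal). Ramp2 could not be tested without puberty. For Crcp in LP against basal cells, -0.12 over all libraries, they gave -0.29 to 0.016, the sign turning without diestrus. Without the block, calls fell from 1422 higher and 1715 lower to 738 and 1031 between ML and LP cells, from 1789 and 1858 to 1112 and 1301 between LP and basal cells, and from 2220 and 2581 to 1438 and 1809 between ML and basal cells. Without TMM, all genes shifted by 0.19 (ML against LP) and -0.20 (LP against basal), and calls became 1900 higher and 1318 lower, and 1333 and 2348. Thinning gave Calca 266 CPM and 16.2% of ML cells, and Tnfsf11, Areg and Pgr 25.3%, 92.9% and 5.05% of cells with Calca, with 5.84% and 8.17% for Tnfsf11 and Pgr without it. The log2 ratio of Ramp1, diestrus over estrus, was -1.48 in LP cells without cycling cells, and in basal cells 0.27 thinned, 0.40 in seed cells and 0.39 without cycling cells, where the main value was 0.03. In LP cells puberty over estrus was -0.83 without TMM, and puberty over diestrus 0.87 without TMM, 1.004 thinned and 0.999 without cycling cells. The cause of these changes was not tested. Depth limits Calcb, Calcr and Calcrl.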

Other observations

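Ranked over the 5575 other genes with at least 50 counts in diestrus ML cells, the cells with Calca also differed from the rest in genes outside the family, a ranking made after the values were seen. Higher in them were H19, an imprinted RNA (76.6 against 13.0 CPM), Slpi, a protease inhibitor (2315 against 837 CPM), Wfdc12 (516 against 169 CPM), and Cdc20 and Ube2c, genes of mitosis (105 against 28.1 and 229 against 80.6 CPM). After thinning to 2000 counts, H19 was at 45.5 against 21.4 CPM, Slpi at 2040 against 778, Wfdc12 at 667 against 159, Cdc20 at 70.7 against 23.3 and Ube2c at 126 against 49.6 CPM. Hba-a1, a haemoglobin gene of red cells, was at 995 against 327 CPM, in 77.8% against 34.5% of cells, and in 62.6% against 29.6% after thinning to 2000 counts. Its part in the other differences was not tested.

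Lower in cells with Calca were Clca3a2 (8.51 against 391 CPM), Ly6d (253 against 3572 CPM), Upk3a (117 against 902 CPM) and Fxyd2 (18.1 against 204 CPM). Ido1 had 0 counts in cells with Calca and 103 in those without. Ang4 and Ang5, members of the angiogenin family, were at 5.32 against 87.9 and 3.19 against 70.0 CPM. Ly6d, Upk3a, Fxyd2, Ang4 and Ang5 belong to the ML signature by which cells were placed. Whether cells with Calca carry less of that signature was not tested. Ccl5, with 0 against 102 counts, came from 0.375% of cells. After thinning, Ly6d was in 23.2% of cells with Calca and 65.0% of those without.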
